A study of Mus musculus with 2 samples.

Results

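GABAergic amacrine cells are inhibitory interneurons of the inner retina, and 172 cells of this kind were found among 9331 retained cells of 2 droplet-based single-cell RNA libraries. The members were chosen by their own transcript counts: a cell was retained with 500 or more detected genes and no more than 30% of mitochondrial transcripts, and a member carried at least 3 unique molecular identifiers (UMIs, the counted transcript molecules) of Gad1 and Gad2 together, at least 1 UMI of Tfap2a, Tfap2b, Pax6 or Slc32a1, and none of Slc6a9 or Trpm1. Library 1 held 54 members among 3865 cells, a share of 1.40% (exact Clopper-Pearson 95% interval 1.05% to 1.82%), and library 2 held 118 among 5466, a share of 2.16% (1.79% to 2.58%). These intervals cover counting error only, and with 1 pooled library on each side the shares were not tested against each other.

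Both libraries belonged to a single group, ciliary epithelium of wild-type C57BL/6 mice at postnatal day 35, with no treatment or genetic change. The dissected tissue of several pairs of eyes was pooled and digested with collagenase, 3 sets for library 1 and 3 or 4 sets for library 2, since the labels differ. The ciliary epithelium is the non-neural continuation of the retina behind the iris. Retinal neurons were found in the labelled tissue, and how they came into it was not tested. The libraries are 2 pools and not 2 animals, and each value below is given for both.

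Amacrine cells receive glutamate from bipolar cells and act on bipolar, ganglion and other amacrine cells. Most use either GABA, made from glutamate by the decarboxylases that Gad1 and Gad2 encode and loaded into vesicles by the transporter of Slc32a1, or glycine, which is taken up by the transporter of Slc6a9. GABAergic amacrine cells are the more varied of these classes, and many of their types carry a neuropeptide or another transmitter besides GABA.

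The stretches upstream of Gad1 and Gad2, the genes that chose the members, and of C1ql2, which the rule did not use and which differed from both comparison classes, are shown because Tfap2a, one of the markers of these cells, encodes a factor of the AP-2 family. Each line gives the 250 bases before the RefSeq start site on the plus strand of GRCm38.p6 (chr2:70561879-70562128 for Gad1, chr2:22622077-22622326 for Gad2, chr1:120340332-120340581 for C1ql2), 5′ to 3′, with matches to the palindromic AP-2 core GCCNNNGGC in capitals.
Gad1: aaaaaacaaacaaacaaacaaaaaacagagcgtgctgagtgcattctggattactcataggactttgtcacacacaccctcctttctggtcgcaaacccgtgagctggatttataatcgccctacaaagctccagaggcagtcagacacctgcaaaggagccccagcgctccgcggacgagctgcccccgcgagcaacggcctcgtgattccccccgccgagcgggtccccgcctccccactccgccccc
Gad2: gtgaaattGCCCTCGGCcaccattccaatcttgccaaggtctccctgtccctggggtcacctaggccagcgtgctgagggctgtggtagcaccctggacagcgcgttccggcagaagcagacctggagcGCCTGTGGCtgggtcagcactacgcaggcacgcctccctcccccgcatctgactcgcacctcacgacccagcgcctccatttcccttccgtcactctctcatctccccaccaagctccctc
C1ql2: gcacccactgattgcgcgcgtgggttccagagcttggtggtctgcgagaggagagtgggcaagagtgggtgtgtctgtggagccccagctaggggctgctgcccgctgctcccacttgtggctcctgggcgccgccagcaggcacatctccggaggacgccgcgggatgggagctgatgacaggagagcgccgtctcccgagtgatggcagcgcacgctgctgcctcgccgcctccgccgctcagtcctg
Gad2 held 2 matches, which begin 242 and 121 bases before its start site, and the windows of Gad1, C1ql2, Slc32a1, Tac1, Tac2 and Meis2 held 0. Of 32851 RefSeq windows of the same length, 4509 (13.7%) held the core. A match is a stretch of letters and not a measured site. RefSeq windows were found for 7 of 9 genes looked up, and the entries of C1ql1 and Cbln2 were missing.

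The members were deep cells. A member carried 936 to 15289 UMIs (median 6632) in library 1 and 1052 to 67202 (median 7641) in library 2, with medians of 2898 and 3162 detected genes. Summed over cells, the members held 350344 and 1112073 UMIs, and the libraries as deposited held 22510387 and 30683405. The libraries shared 11 barcode sequences, and 0 of them belonged to members. Beside the members stood 41 glycinergic amacrine cells (13 and 28), 469 rod bipolar cells (108 and 361), 107 cone bipolar cells (30 and 77), 626 rods, 253 cones and 166 Müller glia, each chosen by a rule on its own marker counts.

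The genes of the rule are given as a description, without a test. Gad1 stood at 1200 and 720 CPM (UMIs of the gene per 1000000 UMIs of the class in the library) in libraries 1 and 2, and Gad2 at 223 and 242 CPM. The members' sum of Gad1 and Gad2 had a median of 7 UMIs in both libraries and ran from 3 to 54 in library 1 and from 3 to 28 in library 2. UMIs of both genes were present in 33 of 54 and 85 of 118 members, of Gad1 alone in 20 and 32, and of Gad2 alone in 1 and 1. Pax6 was detected in 49 and 116 members, Slc32a1 in 49 and 107, Tfap2b in 36 and 81, and Tfap2a in 36 and 59. Just inside the threshold, with a sum of exactly 3, stood 10 and 14 cells, and just outside it, with a sum of 2, stood 9 and 11 cells. C1ql1 was at 542 and 537 CPM in the former and at 265 and 334 CPM in the latter. A further 9 and 28 cells with at least 3 UMIs of Gad1 and Gad2 were left out because they carried Slc6a9, and 4 and 28 because they carried Trpm1.

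Of the 5 markers given for these cells (Gad1, Gad2, Slc32a1, Tfap2a and C1ql1), C1ql1 alone was not part of the rule. C1ql1, which encodes a secreted C1q-like protein of synapses, was detected in 38 of 54 members (70.4%) of library 1 and 95 of 118 (80.5%) of library 2, against 0 of 259 and 5 of 367 rods. Rods were the shallower cells, with medians of 1067 and 2149 UMIs. After every cell was thinned to 1000 UMIs, 49.1% and 62.7% of the members and 0% and 0.615% of the rods kept a UMI of C1ql1.

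**Figure D1:**
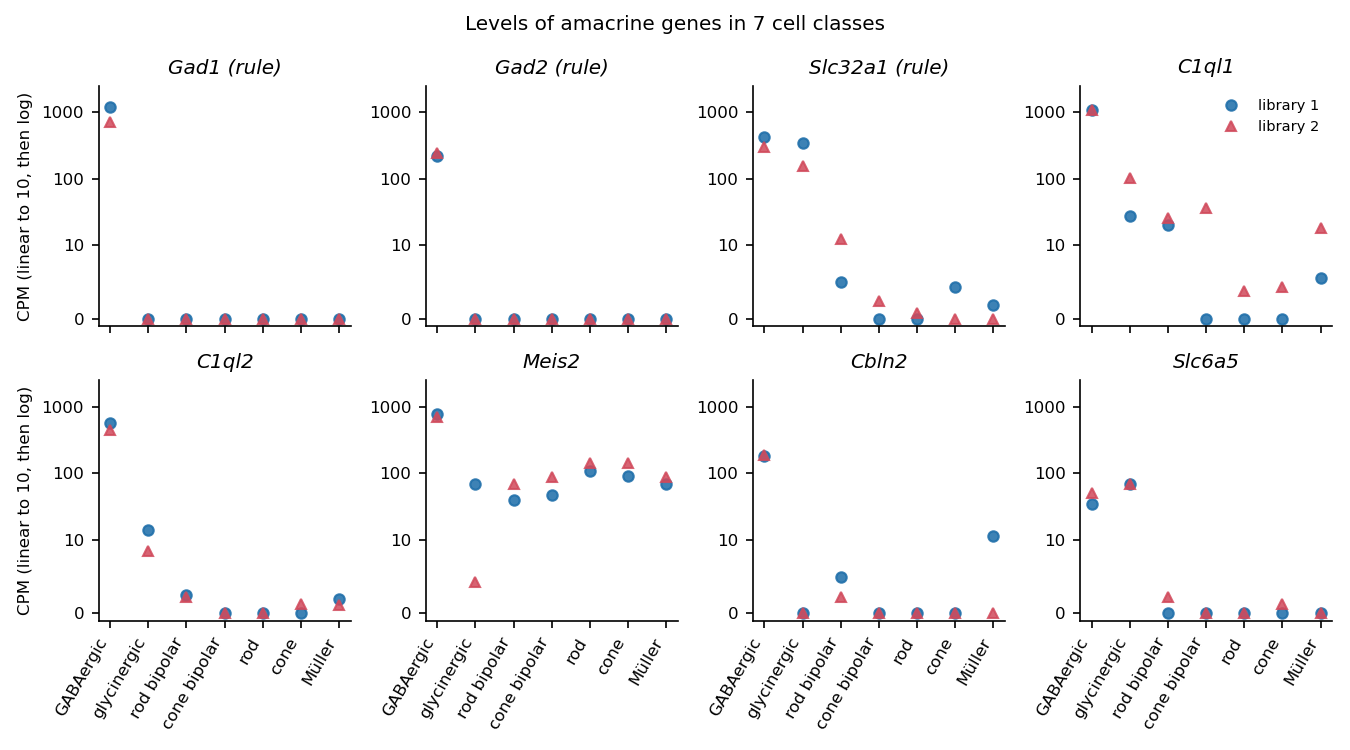
Levels in CPM (vertical axis, linear to 10 and logarithmic above) of 8 genes in 7 cell classes (horizontal axis), with a circle for library 1 and a triangle for library 2. C1ql1, C1ql2, Meis2 and Cbln2 stood higher in GABAergic amacrine cells than in the other 6 classes of both libraries, while Slc6a5 was shared with glycinergic cells; genes marked as rule chose the members.

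Marker genes of other cell types were present, most of all rod genes in library 2. The summed level of 10 rod genes was 217 CPM in the members of library 1 and 6440 CPM in those of library 2, where the 10 amacrine markers summed to 6350 CPM. In rods themselves the rod genes summed to 87400 and 73600 CPM, and 22 of the 118 members of library 2 carried 1% or more of their UMIs in rod genes, against 0 of 54. The 6 fibroblast genes summed to 85.6 and 397 CPM in the members, and to 123 and 6090 CPM in the glycinergic cells. The 9 ganglion cell genes summed to 288 and 985 CPM in the members and to 164 and 2380 CPM in the glycinergic cells, with Slc17a6, Pou4f1, Pou4f2 and Pou4f3 at 0 in the members of library 1. In library 2 all 9 ganglion cell genes had UMIs in the members. At least 2 UMIs of the 5 narrower ganglion cell genes Rbpms, Slc17a6, Pou4f1, Pou4f2 and Pou4f3 together were found in 0 and 5 members. The 5 members held 67, 43, 20, 2 and 2 of these UMIs. The 9 Müller glia genes summed to 1070 and 1520 CPM in the members and to 696 and 1120 CPM in glycinergic cells, and the 6 astrocyte genes to 899 and 1070 CPM and to 369 and 541 CPM. Most of the astrocyte sum was Aldoc, a glycolytic enzyme gene, at 891 and 1010 CPM in the members and called higher in both comparisons below. Pax2 and Pdgfra were at 0 in library 1, while in library 2 all 6 astrocyte genes had UMIs in the members, Pdgfra at 13.5 CPM. The 7 horizontal cell genes summed to 411 and 551 CPM in the members, with Onecut1 at 0 in both libraries, and to 519 and 1360 CPM in glycinergic cells. The 5 endothelial genes summed to 57.1 and 45.0 CPM, mostly Egfl7 (45.7 and 38.7 CPM), with Pecam1, Cdh5 and Cldn5 at 0 in both libraries. The part of such RNA in the results was not tested, apart from the alternatives named below. No doublets were removed, and 8 members of library 2 carried over 20000 UMIs.

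Compared with glycinergic amacrine cells, the members differed in few genes. Of 9233 tested genes, 62 (0.672%) were higher and 80 (0.866%) lower in GABAergic cells, and 1027 reached an unadjusted p under 0.05. A gene was called at an adjusted p under 0.05 and a log2 fold change of at least 1 in edgeR's quasi-likelihood test on UMIs summed per class and library, with Benjamini-Hochberg adjustment over all tested genes. The n is 2 libraries. With library as a block, the p-values measure the spread left after the difference shared by all classes of a library is taken out. That spread was estimated over all 7 classes of the fit, and not from the 2 amacrine classes alone. With 41 glycinergic cells the test saw large differences: on simulated data for this comparison it recovered 55% of 4-fold and 5% of 2-fold changes, and 5 of its 65 calls were false.

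Higher in GABAergic cells were genes of synaptic organisers, tachykinins, a GABA transporter and transcription factors. C1ql2 (chromosome 1, 120340582-120343174), the relative of C1ql1 that also encodes a secreted synaptic protein, was at 577 and 455 CPM in the members and at 13.7 and 8.51 CPM in glycinergic cells. With 708 UMIs in members and 3 in glycinergic cells, its pooled ratio was 49.7 (counting interval 16.9 to 242; edgeR adjusted p = 8.96e-06). It was detected in 41 of 54 and 92 of 118 members and in 0 rods of either library. C1ql1 (chromosome 11, 102939264-102946688) was at 1100 and 1080 CPM against 27.3 and 102 CPM, a log2 fold change of 3.99 ± 0.44 (SE; adjusted p = 9.23e-05). Cbln2, a cerebellin of the same protein superfamily that bridges neurexins to postsynaptic partners, was at 183 and 185 CPM and had 0 UMIs in glycinergic cells, at least 19.0-fold higher against a floor of 3 counts over both libraries (edgeR adjusted p = 0.00672). Its call was lost with DESeq2 (adjusted p = 0.0902) and with cells thinned to 1500 UMIs (0.104). All 3 genes stood higher in both libraries without overlap.

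Meis2, a homeobox transcription factor, was at 785 and 711 CPM in the members and at 68.3 and 4.26 CPM in glycinergic cells (log2 fold change 5.23 ± 0.56, edgeR adjusted p = 9.23e-05). A Meis2 UMI was found in 41 of 54 and 93 of 118 members, but also in 31 of 259 and 124 of 367 rods, where its level was 108 and 143 CPM. Maf, another transcription factor, was at 151 and 127 CPM against 13.7 and 4.26 CPM, with 2 UMIs in all in glycinergic cells and a pooled ratio of 20.4 (5.58 to 170; adjusted p = 0.00615). Bhlhe22, a basic helix-loop-helix factor, was at 191 and 113 CPM against 27.3 and 12.8 CPM. Its call was lost with DESeq2 (adjusted p = 0.214), with no replicate block and with cells thinned to 1500 UMIs. Of 19 tested amacrine transcription factors, 2 were higher (Meis2, Bhlhe22) and 3 lower (Neurod4, Nfix, Tcf4), with a median log2 fold change of 0.03 against 0.09 over all tested genes. The shares over all tested genes were 0.672% higher and 0.866% lower.

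Among genes of GABA handling, 1 was called. Slc6a11, a GABA transporter, was at 197 and 135 CPM in the members and at 0 and 25.5 CPM in glycinergic cells (log2 fold change 3.09 ± 0.64, edgeR adjusted p = 0.0215). In Müller glia it stood at 105 and 100.0 CPM, in cone bipolar cells at 82.9 and 150 CPM and in rod bipolar cells at 46.9 and 35.4 CPM. The cone bipolar cells of library 2 were thus above the members. Slc6a11 was the 1 called gene of the 9 tested in the list of GABA synthesis, packaging, uptake and breakdown. Of all tested genes, 0.672% were higher and 0.866% lower. Abat, which breaks GABA down, was at 106 and 79.1 CPM against 123 and 72.4 CPM. Slc12a5, the chloride exporter that sets the response to GABA, was at 611 and 578 CPM against 478 and 575 CPM.

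Channels and release genes gave a few calls, where 0.672% of all tested genes were higher and 0.866% lower. Cplx2, a complexin of vesicle fusion, was at 391 and 268 CPM against 41.0 and 51.1 CPM (log2 fold change 2.70 ± 0.36, edgeR adjusted p = 0.000586), and was the 1 call among 22 vesicle genes. Kcnip1 and Kcnab1, auxiliary subunits of potassium channels, were higher by 3.05 ± 0.52 and 3.55 ± 0.59 on the log2 scale, and Kcnh7 was lower by -2.12 ± 0.50, among 21 potassium channel genes. Cacna2d2, a calcium channel subunit, was higher (183 and 212 against 0 and 46.8 CPM), while the sodium channel gene Scn1a (74.2 and 98.9 against 191 and 349 CPM) was lower, among 18 sodium and calcium channel genes. The call of Kcnh7 was lost under 6 alternatives, and those of Kcnab1 and Scn1a with cells thinned to 1500 UMIs.

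Lower in GABAergic cells were Lamp5, Prox1, Gjd2, Neurod2 and Neurod4. Lamp5, a lysosome-associated membrane protein of neurons, was at 2.85 and 11.7 CPM in the members and at 737 and 634 CPM in glycinergic cells, a log2 fold change of -6.26 ± 0.44 (edgeR adjusted p = 1.10e-06). Prox1, a homeobox factor, was at 11.4 and 11.7 CPM against 287 and 238 CPM (-4.40 ± 0.40, adjusted p = 1.16e-05). Gjd2, which encodes connexin 36, the gap junction protein of the AII amacrine cell, was at 31.4 and 28.8 CPM against 300.0 and 170 CPM (-2.82 ± 0.42, edgeR adjusted p = 0.00157). Its call was lost with cells thinned to 1500 UMIs. Neurod2 had 0 UMIs in the members and stood at 95.6 and 93.7 CPM in glycinergic cells, at least 45.9-fold lower. Of 11 tested genes in the list for AII and glycinergic amacrine cells, 7 were lower (Gjd2, Dab1, Prox1, Nfia, Car2, Ebf1 and Neurod2) and 0 higher, with a median log2 fold change of -2.41. Among all tested genes, 0.866% were lower and 0.672% higher. The call of Ebf1 was lost with DESeq2 and with no replicate block. The list for AII and glycinergic cells was written with results of these cells known, so its direction is no independent evidence.

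Further genes lower in the members were Mapk12, Rnf152, Neurod4, Nfix, Ptprf, Ccsap, Zyx, Ncald and Slc17a8. The call of Zyx was lost with cells thinned to 1500 UMIs. Neurod4, a basic helix-loop-helix factor of retinal interneurons, was at 14.3 and 9.89 CPM against 177 and 106 CPM (-3.47 ± 0.40, edgeR adjusted p = 0.000138). Slc17a8, the vesicular glutamate transporter VGLUT3 of a minority amacrine type, had 1 UMI in the members and 25 in glycinergic cells, of which 22 were in library 1. Igfbp5 and Col12a1 were lower as well, but 2 glycinergic cells of library 2 carried 10 or more UMIs of fibroblast collagen and decorin genes. Without such cells the adjusted p was 0.271 for Igfbp5 and 0.224 for Col12a1.

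**Figure D2:**
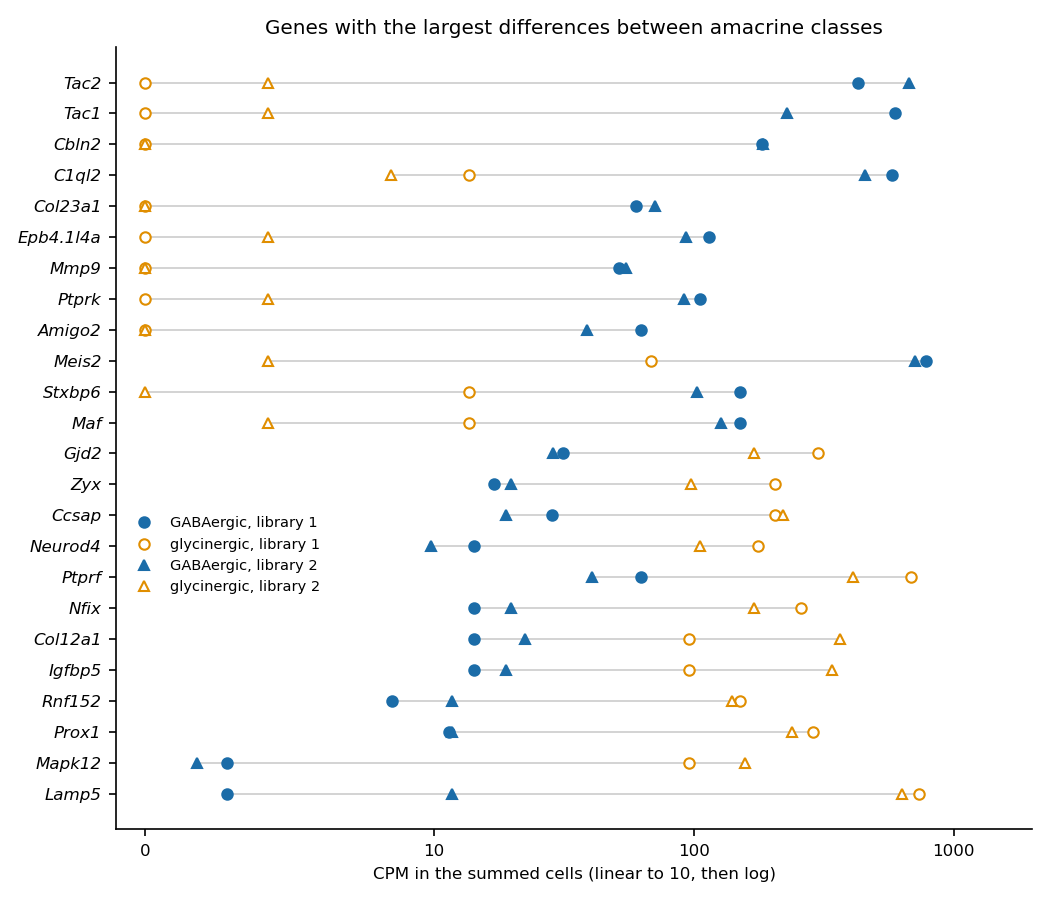
Levels in CPM (horizontal axis, linear to 10 and logarithmic above) of the 12 genes with the largest fold changes in each direction between GABAergic (filled blue) and glycinergic (open orange) amacrine cells, with circles for library 1 and triangles for library 2. The symbols of the classes do not overlap for any of the 24 genes, from Tac2 at 428 and 675 CPM in GABAergic cells to Lamp5 at 737 and 634 CPM in glycinergic cells.

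Neuropeptides divided the members among themselves. Tac1, the precursor of substance P, was at 594 and 228 CPM in the members and had 1 UMI in glycinergic cells, a pooled ratio of 97.3 (17.4 to 3850; edgeR adjusted p = 9.23e-05). Tac2, the precursor of neurokinin B, was at 428 and 675 CPM against 1 UMI in glycinergic cells, a pooled ratio of 190 (34.0 to 7510; adjusted p = 8.96e-06, and 0.480 with DESeq2). These levels came from a few cells. Tac1 was detected in 11 of 54 and 21 of 118 members and Tac2 in 3 and 9, and the top 3 members held 100% and 82.2% of the Tac2 UMIs. Of 8 tested peptide genes, 2 were called higher against glycinergic cells, with a median log2 fold change of 2.03. Among all tested genes, 0.672% were higher and 0.866% lower. Npy, the precursor of neuropeptide Y, was at 574 and 27.0 CPM against 0 and 4.26 CPM and was not called (adjusted p = 0.0704).

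Counted cell by cell, at least 5 UMIs of any of 7 peptide genes were present in 16 of 54 members (29.6%) of library 1 and 30 of 118 (25.4%) of library 2, and of 2 or more of these genes in 5 and 10. Tac1 and Tac2 shared cells: at this level 2 of the 3 Tac2 members of library 1 and 5 of the 8 of library 2 also carried Tac1. One such member of library 2 held 47 UMIs of Tac1 and 284 of Tac2, among 23224 UMIs in all. Another held 37 and 22, among 20876. Both belong to the 8 members of over 20000 UMIs, and no doublets were removed. Cartpt, the precursor of the CART peptides, reached 5 UMIs in 4 and 13 members, with up to 347 UMIs in a cell of each library. A Cartpt UMI was present in 12 of 54 and 29 of 118 members, and in 0 of 259 and 22 of 367 (5.99%) rods. Cartpt stood at 2110 and 1470 CPM in the members, while glycinergic cells had 123 and 1110 CPM, and it was not called.

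Sst, the precursor of somatostatin, was found in 3 members, all of library 2, with 109, 849 and 1019 UMIs. These members carried 12371, 29046 and 27449 UMIs in all, and doublets were not removed. The same 3 cells carried 11, 5 and 10 UMIs of Gal, the precursor of galanin, and 0 UMIs of C1ql1 and C1ql2, while Meis2 stood at 10, 3 and 8 UMIs. Library 1 had 0 Sst UMIs in 54 members, which allows a share of up to 5.56% of members with a UMI. Vip, the precursor of vasoactive intestinal peptide, reached 5 UMIs in 3 members of library 2, with 5, 23 and 61 UMIs. The latter 2 also carried 14 and 13 UMIs of Cartpt. The member with 61 UMIs of Vip carried 34550 UMIs in all, 4.26% of them in rod genes. Crh had 0 UMIs in the members of both libraries.

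Starburst amacrine cells, which release acetylcholine besides GABA and serve direction selectivity, were sought by Chat, Slc18a3 (the vesicular acetylcholine transporter) and Slc5a7 (the choline transporter). Chat had 0 and 1 UMI, and Slc18a3 and Slc5a7 were detected in 3 and 3 and in 6 and 6 members. At least 2 UMIs of the 3 genes together were held by 5 of 54 and 2 of 118 members. In library 1 all 5 had 0 UMIs of C1ql1, C1ql2 and Meis2. Of these, 4 carried 6, 73, 80 and 103 UMIs of Calb2, the gene of calretinin, and 5, 17, 2 and 8 UMIs of Npy, and the other, with 2 UMIs of Slc5a7, carried 0 of Calb2 and Npy. In library 2, a member with 3 UMIs of Slc18a3 and 2 of Slc5a7 carried 18 of Calb2 and 0 of C1ql1, C1ql2, Meis2 and Npy. The other, with 2 UMIs of Slc18a3 and 3 of Slc5a7, carried 7 of Calb2, 4 of Npy, 3 of C1ql1, 3 of C1ql2 and 4 of Meis2. These cells were named after their values were seen, and nothing was tested on them.

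Genes known from other amacrine types were counted as well. Th, the gene of the dopamine-forming tyrosine hydroxylase, had 5 UMIs in 1 member of library 1, which also carried 88 UMIs of Calb2 and 30 of C1ql1, and 1 UMI in 1 member of library 2. Nos1, neuronal nitric oxide synthase, was detected in 3 and 5 members. Calb2 was detected in 7 of 54 and 29 of 118 members, and in 2 of 259 and 28 of 367 rods. Slc6a5, the neuronal glycine transporter GlyT2, was detected in 7 of 54 (13.0%) and 24 of 118 (20.3%) members and in 0 rods. Its level was 34.3 and 49.5 CPM in the members and 68.3 and 68.1 CPM in glycinergic cells, a log2 fold change of -0.61 ± 0.59 that was not called (edgeR adjusted p = 0.778).

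Maf and Cbln2 were each high in few members. Maf reached 5 UMIs in 5 and 12 members and Cbln2 in 5 and 16, and 0 members of either library reached 5 UMIs of both, a count too small to show that they keep apart. At 1 UMI, 2 and 3 members held both. C1ql1 at 5 UMIs or more was present in 5 of 5 and 12 of 12 of the Maf members and in 4 of 5 and 16 of 16 of the Cbln2 members, against 23 of 54 and 81 of 118 of all members. UMIs of C1ql1 and C1ql2 were present together in 34 of 54 and 85 of 118 members, and neither was found in 9 and 16. Cells of a library are not replicates, and these overlaps are descriptions.

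**Figure D3:**
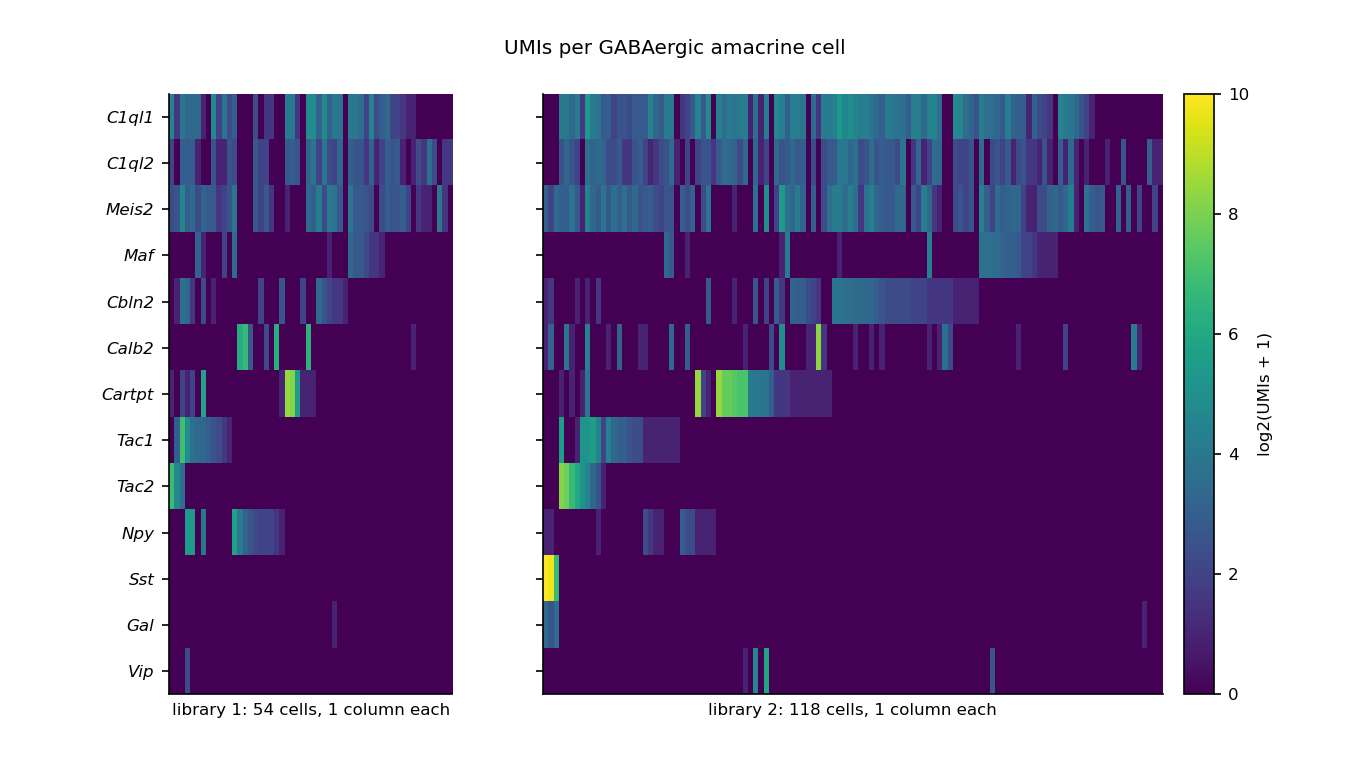
UMIs per cell (colour, log2 of UMIs + 1) of 13 genes (rows) in each of the 54 members of library 1 (left) and the 118 of library 2 (right), 1 column per cell, ordered by Sst, Tac2, Tac1, Npy, Cartpt, Cbln2 and Maf. C1ql1, C1ql2 and Meis2 run across most cells, each peptide is high in few cells, some of which share 2 or more peptides, and Sst is present in 3 cells of library 2 and in none of library 1.

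Compared with bipolar cells, the glutamatergic neurons that drive them, the members differed in many more genes. Of the 9233 genes, 845 (9.15%) were higher and 699 (7.57%) lower in GABAergic amacrine cells than in the mean of rod and cone bipolar cells, and the median log2 fold change was -0.02. The test and thresholds were the same, and the bipolar levels below are of both bipolar classes pooled. The members are shared with the comparison above, so the 2 comparisons are not independent. C1ql2 was at 577 and 455 CPM against 1.95 and 1.94 CPM (log2 fold change 9.44 ± 0.39, edgeR adjusted p = 3.61e-09). Tac2, Cpne5, Zcchc12, Ucma, Ccdc88b, Nrgn, Kcnip1, Cbln2, Cartpt and Grin2a were among the other genes with the largest positive folds. Zcchc12 and Ucma had 0 UMIs in bipolar cells and were at least 71.6-fold and 58.4-fold higher. The calls of Cpne5, Ucma and Grin2a were lost with DESeq2.

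The GABA receptor genes differed in both directions. Of 9 tested, 5 were higher in the members (Gabra2, Gabra3, Gabrd, Gabbr1 and Gabbr2) and 2 lower (Gabrr1 and Gabrr2). Gabrd was at 120 and 41.4 CPM in the members, 27.6 and 43.4 CPM in cone bipolar cells and 0 and 2.98 CPM in rod bipolar cells. In library 2 Gabrd was thus not above its level in cone bipolar cells. Gabra2, an alpha subunit of the GABA-A receptor, was at 99.9 and 53.1 CPM in the members and had 1 UMI in bipolar cells (pooled ratio 232, counting interval 40.6 to 9260; edgeR adjusted p = 1.71e-05). Gabra3 was at 65.6 and 52.2 CPM against 1.95 and 2.91 CPM. Gabrr1 and Gabrr2 encode rho subunits, which form the slow GABA receptors of bipolar terminals. Gabrr1 was at 2.85 and 4.50 CPM against 279 and 231 CPM (-5.87 ± 0.46, adjusted p = 1.88e-07), and Gabrr2 had 3 UMIs in the members, all in library 2, against 736 in bipolar cells (pooled ratio 0.0101, 0.00207 to 0.0295). Against glycinergic cells, 0 of the 9 GABA receptor genes were called. Over all tested genes, 9.15% were higher and 7.57% lower against bipolar cells, and 0.672% and 0.866% against glycinergic cells.

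Glycine receptor genes also split. Glra2 (62.8 and 44.1 CPM, with 1 UMI in bipolar cells), Glra3 (62.8 and 29.7 against 0 and 1.62 CPM) and Glrb (97.0 and 98.9 against 33.1 and 26.2 CPM) were higher, and Glra1 (5.71 and 3.60 against 29.2 and 35.5 CPM) was lower, of 5 tested. The call of Glra3 was lost with DESeq2 (adjusted p = 0.540). None of the 5 was called against glycinergic cells. For Glrb the members stood at 97.0 and 98.9 CPM and the glycinergic cells at 95.6 and 102 CPM. Cone bipolar cells held Glrb at 64.5 and 65.2 CPM, and rod bipolar cells at 24.7 and 20.1 CPM. The shares over all tested genes were 9.15% higher and 7.57% lower against bipolar cells, and 0.672% and 0.866% against glycinergic cells.

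Among ionotropic glutamate receptors, Gria3, Gria4, Grin1 and Grin2a were higher than in bipolar cells and Grik1 and Grid1 lower, of 12 tested. The shares over all tested genes were 9.15% and 7.57%. Gria3, an AMPA receptor subunit, was at 131 and 118 CPM against 3.90 and 7.75 CPM (log2 fold change 4.36 ± 0.39, edgeR adjusted p = 6.92e-07), and Grik1, the kainate receptor subunit of OFF bipolar cells, at 8.56 and 8.99 CPM against 160 and 119 CPM (-4.13 ± 0.37, adjusted p = 1.04e-06). Grin2a, an NMDA receptor subunit, was at 25.7 and 42.3 CPM and had 0 UMIs in bipolar cells, at least 46.1-fold higher. Grin1 and Grin2a were not called with DESeq2 (adjusted p = 0.0753 and 0.387), and Grin1 also not with cells thinned to 1500 UMIs. Of the 4 tested metabotropic receptors, Grm8 was higher and Grm5 and Grm6 lower. Grm6, the receptor of ON bipolar dendrites, had 1 UMI in the members and 1882 in bipolar cells.

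**Figure D4:**
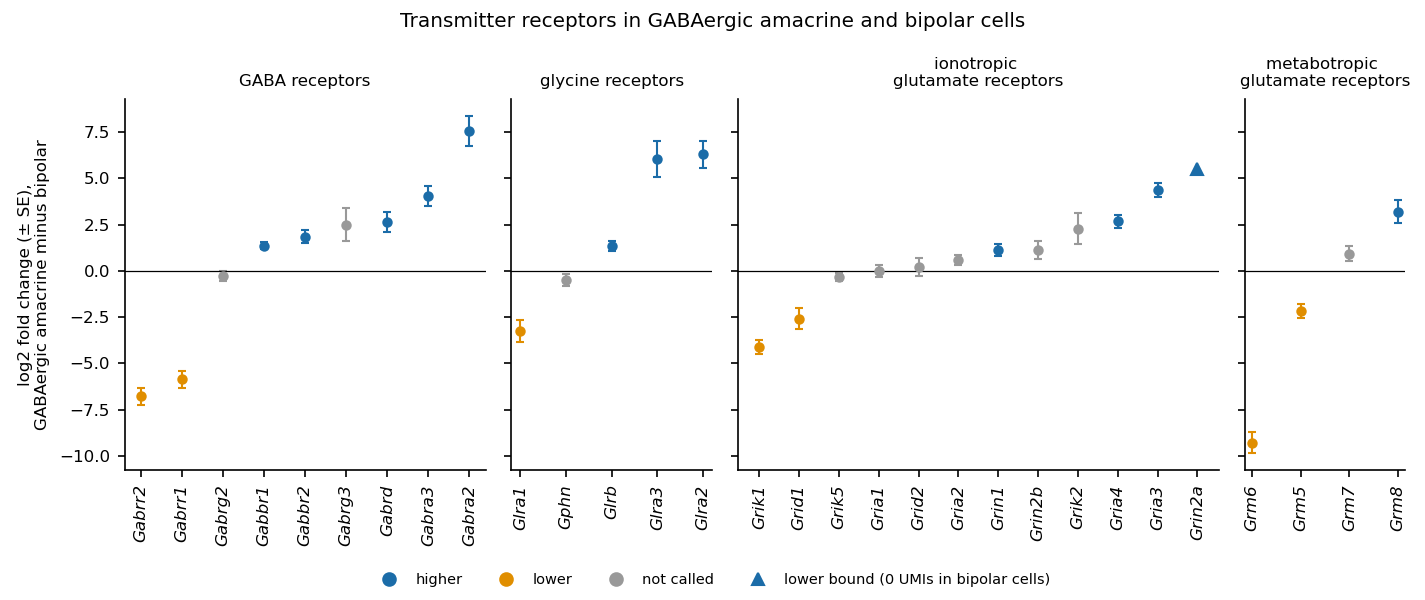
Log2 fold changes with SE (vertical axis) of 30 tested transmitter receptor genes, GABAergic amacrine minus bipolar cells, in 4 lists, coloured by the call; the triangle is a lower bound for a gene with 0 UMIs in bipolar cells. Each list holds genes on both sides of 0, from Grm6 and the rho subunit genes Gabrr1 and Gabrr2 far below to Gabra2 at 7.57 ± 0.82.

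Of 18 sodium and calcium channel genes, 9 were higher than in bipolar cells and 4 lower, against 9.15% and 7.57% of all tested genes. Scn1a, Scn2a1, Scn3a, Scn2b and Scn3b, the pore and auxiliary subunits of sodium channels that carry action potentials, were all higher, for example Scn1a at 74.2 and 98.9 CPM against 11.7 and 11.6 CPM (2.66 ± 0.30, edgeR adjusted p = 7.05e-06). Cacna1a and Cacna1b, the pores of P/Q-type and N-type calcium channels, were higher (1.91 ± 0.32 and 1.76 ± 0.50). Cacna1f, the L-type channel of ribbon synapses, was at 0 and 21.6 CPM against 97.4 and 124 CPM (-3.06 ± 0.47, adjusted p = 0.000144), and Cacna2d4, its auxiliary subunit, was lower by -3.34 ± 0.49. Of 21 potassium channel genes, 9 were higher and 4 lower. Kcna1 was at 140 and 134 CPM against 3.90 and 8.72 CPM, and Kcnma1, the BK channel, at 77.1 and 70.1 CPM against 540 and 411 CPM.

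Vesicle genes gave 7 higher and 4 lower of 22, where 9.15% of all tested genes were higher and 7.57% lower. Stx3, the syntaxin of ribbon synapses, was at 45.7 and 81.8 CPM against 325 and 322 CPM (log2 fold change -2.40 ± 0.40, edgeR adjusted p = 0.000333). Cplx1 (not called with DESeq2, adjusted p = 0.0658) and Cplx2 were higher, and Sv2b, Unc13b and Syt2 lower. The call of Syt2 was lost under 5 alternatives, DESeq2 among them, and that of Unc13b with cells thinned to 1500 UMIs. Of 34 adhesion and recognition genes, 14 were higher and 5 lower. Nrxn2, a presynaptic neurexin, was at 619 and 614 CPM against 48.7 and 74.3 CPM (3.05 ± 0.27, adjusted p = 5.73e-07), and Sdk2, a sidekick of laminar targeting, at 5.71 and 14.4 CPM against 66.2 and 44.3 CPM.

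Peptide precursors gave 5 higher (Npy, Tac1, Cartpt, Tac2 and Vgf) and 1 lower (Cck) of 8. Among all tested genes, 9.15% were higher and 7.57% lower. Vgf, a granin-like precursor, was at 117 and 69.2 CPM against 0 and 2.58 CPM (5.24 ± 0.57, edgeR adjusted p = 8.03e-06). Of 16 calcium-binding proteins, 8 were higher and 2 lower; Vsnl1, visinin-like 1, was at 471 and 415 CPM against 13.6 and 16.8 CPM (4.65 ± 0.38, adjusted p = 3.04e-07). Calb1, called lower, was at 54.2 and 9.89 CPM against 183 and 109 CPM. Without cells of over 20000 UMIs its log2 fold change was 1.03 (adjusted p = 0.465). Of 19 amacrine transcription factors 7 were higher, among them Tfap2c, Barhl2, Lhx9 and Meis1, and 7 lower, among them Isl1 and Neurod1, which are known from bipolar cells.

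The 7 tested ganglion cell marker genes were all higher than in bipolar cells, where 9.15% of all tested genes were higher. Several of the 7 differed in level between the libraries. The calls of Slc17a6 and Pou4f1 were lost with DESeq2 (adjusted p = 0.634 and 0.641), and that of Slc17a6 also with no replicate block (0.0676). Nefl, a neurofilament gene, was at 68.5 and 348 CPM against 13.6 and 55.9 CPM, and Slc17a6, the vesicular glutamate transporter of ganglion cells, at 0 and 51.3 CPM against 0 and 2.91 CPM. Without amacrine cells holding at least 2 UMIs of Rbpms, Slc17a6 and the Pou4f genes together, 5 members of library 2 among them, Nefl was not called (log2 fold change 0.91, edgeR adjusted p = 0.129). Pou4f1 was at 0 and 29.7 CPM. Those 5 members held 67, 43, 20, 2 and 2 UMIs of Rbpms, Slc17a6 and the Pou4f genes together. The member with 67 carried 67202 UMIs in all. Thy1, which amacrine cells also express, was at 183 and 184 CPM against 0 and 5.17 CPM (5.40 ± 0.45, adjusted p = 3.08e-07).

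No gene of the list that responds to tissue dissociation was called higher in the members. Of 16 such genes, 0 were called against glycinergic cells, and 0 were higher and 6 lower against bipolar cells (Ier2, Atf3, Nr4a1, Btg2, Zfp36 and Socs3). Over all tested genes, 0.672% were higher and 0.866% lower against glycinergic cells, so 0 calls of 16 do not show equal levels. Against bipolar cells these shares were 9.15% and 7.57%. With no replicate block the calls of Ier2, Atf3, Zfp36 and Socs3 were lost (adjusted p = 0.196, 0.277, 0.0931 and 0.322), and with DESeq2 those of Atf3 and Socs3 (0.0751 and 0.150). The call of Socs3 was lost under 5 alternatives in all. Their summed level was 959 CPM in the members of library 1 and 2570 CPM in those of library 2, and 669 and 2600 CPM in glycinergic cells. The part of this response in the differences between classes was not tested.

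**Figure D5:**
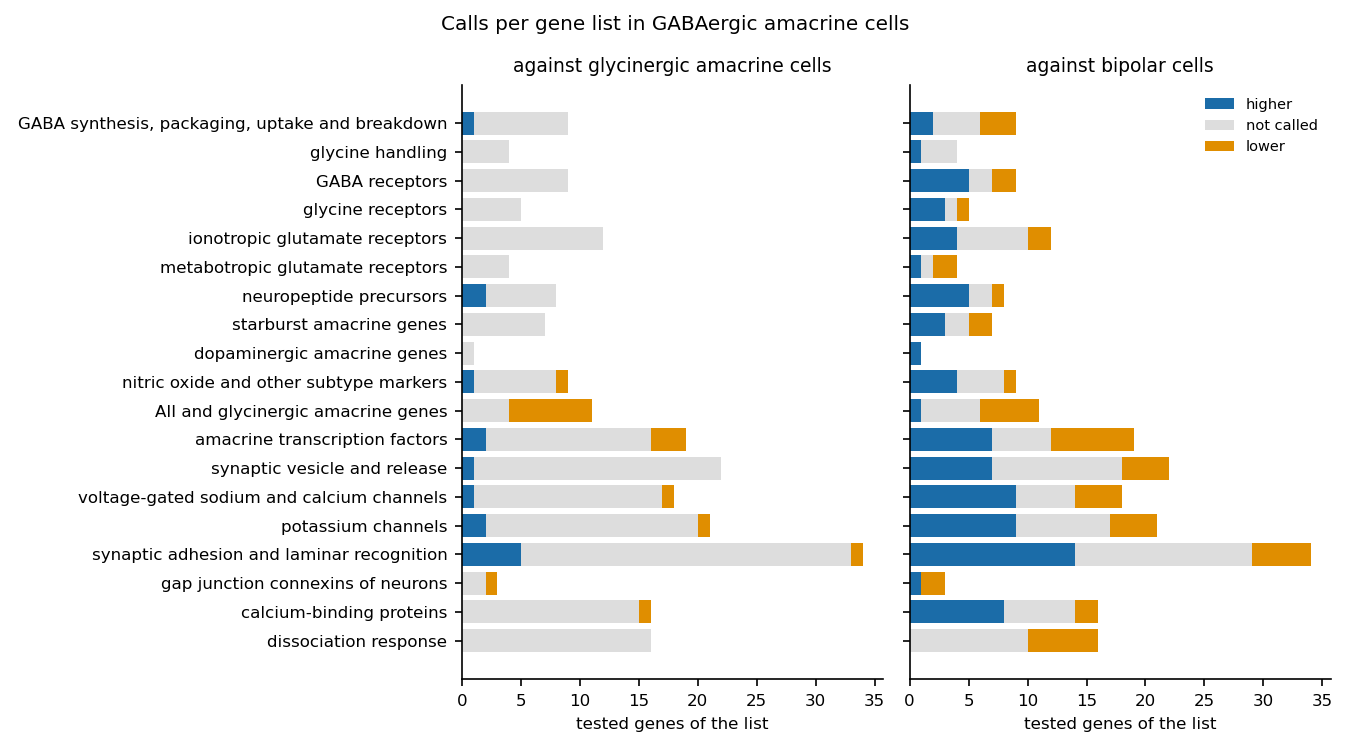
Number of tested genes per list (horizontal axis) that were higher (blue), lower (orange) or not called (grey) in GABAergic amacrine cells against glycinergic amacrine cells (left) and bipolar cells (right). Against glycinergic cells the receptor lists hold 0 calls and the list for AII and glycinergic cells 7 lower genes. Against bipolar cells most lists hold calls in both directions. Over all 9233 tested genes, 0.672% were higher and 0.866% lower against glycinergic cells, so 0 calls in a short list are near that share. Against bipolar cells the shares were 9.15% and 7.57%.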

How the data were processed

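For each of the 2 libraries the deposited values are raw UMI counts of 33456 genes by barcode, with lists of both, written by Cell Ranger 3.1.0 per the file headers. Each count matrix was deposited in duplicate, and the copies differed in 0 entries. CASAVA 1.8, Cell Ranger and Seurat with mm10 and GRCm38 are named in the submitters' processing notes; the annotation release is not given in the sources used here. Gene positions came from GENCODE vM21 (32655 of 33456 identifiers found).

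The limits for a barcode were 500 genes detected and 30% of UMIs from mitochondrial genes, and doublets were not called. There was no clustering: 7 classes were set by rules on marker UMIs, and barcodes meeting 2 rules (8 and 80) entered no class. UMIs were summed per class and library into 14 profiles. They entered 1 fit (edgeR 4.0.16 in R 4.3.3, TMM, filterByExpr, glmQLFit and glmQLFTest, 6 residual degrees of freedom, common dispersion 0.0412). Library was a block, since the classes of a library share its pool. Genes of any class rule counted in library sizes but were not tested. Alternatives were DESeq2 1.42.0, other filters, rules and thinning to 1500 UMIs, tested in the same way; shares of cells with a UMI were also taken after thinning to 1000 UMIs (seed 1). The code was tested on simulated data.

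Genes named were the 12 largest called changes per direction with the same sign in both libraries, at least 5 UMIs in each library and 30 in all in the higher class, without class-rule, Gm-numbered, Rik, mitochondrial, ribosomal and globin genes, up to 4 called genes per direction of each list, and the genes of the marker, subtype, peptide, receptor and channel lists as values. The members and lists were chosen with earlier results of these data known. Some genes are not reported here and are not counted in the lists. Where a class had 0 UMIs, a bound against 3 counts over both libraries is given; where it had 1 to 3, the pooled ratio with its 95% counting interval.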

Additional observations from a re-analysis of the deposited data

How the results depend on the processing

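Against glycinergic cells, the 62 higher genes became 35 with DESeq2, 168 without a filter on low counts, 38 with no replicate block, 24 with cells thinned to 1500 UMIs, 182 with a glycinergic rule that mirrors the GABAergic one, and 98 without cells holding ganglion cell genes. The 80 lower genes became 191 without the filter, 40 with no replicate block, 26 with thinned cells, 170 with the mirrored rule and 132 with the amacrine classes alone in the fit. Thinning left fewer genes to test (3811). The block rests on each library being 1 pool of tissue. Against bipolar cells, thinning gave 314 higher and 300 lower genes, and the other alternatives gave 722 to 1190 higher and 585 to 888 lower. Col23a1 reversed against glycinergic cells under the mirrored rule (-0.32, adjusted p = 0.786), and Calb1 against bipolar cells without cells of over 20000 UMIs (1.03, adjusted p = 0.465); the cause was not tested. Of the named genes, 23 of 41 against glycinergic and 95 of 136 against bipolar cells kept their call under every alternative with a test that gave them a value. With 1 library left there are no residual degrees of freedom, so counts of calls could not be had; as differences of log2 CPM against bipolar cells, Calb1 ranged from -3.48 to 1.03 between the libraries left, Pvalb from -0.46 to 3.39 and Slit2 from -1.77 to 0.02, each with the reversed sign without library 2. The number of members was 51 to 53 and 111 to 114 with stricter cell filters, and 40 to 63 and 98 to 129 with other Gad minima. The alternatives without ganglion cell genes, fibroblast genes or cells of over 20000 UMIs were chosen after seeing the data.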
